A study of Mus musculus with 3 samples.

Results

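The genes of 10 glycolytic enzymes were followed in hippocampal RNA-seq of 3 mouse genotypes: Hk1, Pfkm, Aldoa, Aldoc, Tpi1, Gapdh, Pgk1, Eno1, Pkm and Ldha. They were chosen by gene name in the deposited table, which held 11 records with these names among 54532 gene records. The 11th record also carried the name Aldoa and is described apart, so counts below are over 10 genes. The libraries came from wild-type mice (WT), PS19 mice, and PS19 mice heterozygous for Zbp1 (PS19 Zbp1+/-), with 1 library per genotype. Where 3 values stand together below, they follow this order. All mice were on a C57BL/6 background and 10 months old. PS19 is a transgenic line that carries human mutant tau under the mouse Prnp promoter, and both PS19 groups carry that transgene. Zbp1 encodes a sensor of Z-form nucleic acids. The sources used here do not say whether a library came from 1 animal or from pooled animals, and they name animal housing at 2 universities without saying which mice came from which. With 1 library per genotype no difference has a replicate check, no p-value is given, and every interval covers counting error only.

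Glycolysis turns glucose into pyruvate in the cytosol and yields ATP without oxygen, and lactate dehydrogenase converts pyruvate and lactate into each other. Hexokinase traps glucose in the cell, phosphofructokinase commits it to the pathway, and pyruvate kinase makes the last ATP. In brain, several steps are run by isozymes that differ between cell types: aldolase C is prominent in astrocytes, enolase 2 in neurons, and the A and B subunits of lactate dehydrogenase are associated with lactate production and lactate use. Gapdh is widely used as a reference gene.

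The libraries held 16746085, 16400328 and 17109734 reads assigned to genes. Zbp1 itself had 5, 91 and 0 reads. Xist had 11062 and 13350 reads in WT and PS19 and none in PS19 Zbp1+/-, where 4 Y-linked genes had 268 to 711 reads against 0 in both other libraries. Comparisons with PS19 Zbp1+/- are thus also comparisons between libraries that differ in sex-linked transcripts, and genotype and sex cannot be told apart. The defining choroid plexus markers were near 0 in PS19 Zbp1+/-: the 6 listed genes summed to an FPKM of 10.5 there, against 3113 in WT and 1904 in PS19. FPKM counts fragments relative to the length of the gene and the size of the library. In bulk tissue, fewer cells of a type and less RNA per cell cannot be told apart, here and in every result below. The hippocampal markers Neurod6, Wfs1, Prox1, Zbtb20, Lct and Dsp all had reads in each library, with summed FPKM values of 133, 108 and 99.7. All 6 were lower in PS19 Zbp1+/- than in WT. Of 12436 protein-coding genes that reached an FPKM of 1 in either of these libraries, 51.0% were higher. Lct (602, 592 and 211 reads) and Dsp (644, 690 and 195 reads) were at least 2-fold lower than in WT, as were 2.28% of those genes. The median difference of the 6 markers from PS19 was -0.87. Dissection and genotype cannot be told apart.

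One member, Gapdh, has many near-identical copies in the mouse genome, and its sequence is shown first because its reads turn on it. Gapdh lies on chromosome 6 (GRCm38, 125161715 to 125166467, minus strand), and its longest GENCODE M21 coding sequence has 1080 bases. A BLAST search of that sequence found 154 other gene records matching at least 50% of it at 90% identity or more, and 25 of these matched at 99% or more. The lines below give bases 374 to 463 of the Gapdh coding sequence, counted from the A of the start codon, and the same stretch of the 5 copies of at least 99% identity that held 20 reads or more in a library. Capitals mark the positions at which any of these copies differs from Gapdh.
Gapdh: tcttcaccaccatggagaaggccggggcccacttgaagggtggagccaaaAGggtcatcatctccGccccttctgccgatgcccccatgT
Gm7336: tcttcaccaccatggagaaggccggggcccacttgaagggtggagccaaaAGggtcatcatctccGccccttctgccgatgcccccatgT
Gm5559: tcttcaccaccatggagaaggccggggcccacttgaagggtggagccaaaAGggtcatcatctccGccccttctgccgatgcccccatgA
Gm12070: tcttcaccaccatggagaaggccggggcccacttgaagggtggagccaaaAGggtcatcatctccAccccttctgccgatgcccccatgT
Gm13394: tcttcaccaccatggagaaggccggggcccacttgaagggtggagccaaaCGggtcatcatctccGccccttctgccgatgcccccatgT
Gm2451: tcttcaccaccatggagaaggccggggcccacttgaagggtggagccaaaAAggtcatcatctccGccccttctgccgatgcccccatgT

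Gm7336, a processed pseudogene on chromosome 7 (51746647 to 51747878), had no difference from Gapdh over 1020 aligned bases. Gm5559 differed only by T463A, Gm12070 only by G439A and Gm13394 only by A424C, each over 1000 to 1002 aligned bases. Gm2451 differed at 4 positions, C109A, T141C, G425A and C669T. Of all 100-base windows of the Gapdh coding sequence, 93.9% occurred without a mismatch in transcripts of other genes, spread over 86 records. Pgk1, with 100%, was the only member above that share, and Eno1 followed with 69.2%. Even so, the Pgk1 record held 99.6%, 99.7% and 99.6% of the reads of Pgk1 and its copies. Pkm shared 15.3%, Ldha 2.23% and Tpi1 1.498% of such windows, while Hk1, Pfkm, Aldoa and Aldoc shared none. How reads matching several places were counted is not given in the sources used here.

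Gapdh, the enzyme of the first oxidation step, had 1629, 239 and 205 reads. The FPKM values were 22.8, 3.34 and 3.13, the lowest of the 10 members in each library. WT alone was high, and both PS19 libraries were low and close to each other. The PS19 over WT read ratio was 0.146 (exact Clopper-Pearson 95% interval 0.127 to 0.168), and PS19 Zbp1+/- over WT was 0.137 (0.118 to 0.159). The ratio of PS19 Zbp1+/- over PS19 was 0.937 (0.774 to 1.13), an interval that includes 1 at the deposited library sizes. Because of the copies, these reads are an uncertain measure of Gapdh mRNA. The table's length for this record, 4133 bases, is well above the coding length, but this is not particular to Gapdh. Eno1 has a length of 5379 bases against a coding length of 1305.

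The copies together differed less between libraries than the Gapdh record did. Reads over the 25 copies of at least 99% identity summed to 573, 430 and 613. Their PS19 over WT ratio was 0.749 (0.659 to 0.850), that of PS19 Zbp1+/- over PS19 was 1.56 (1.37 to 1.77), and that of PS19 Zbp1+/- over WT was 1.17 (1.04 to 1.31). Gm7336, with no difference from Gapdh, had 225, 182 and 269 reads, and Gm5559 had 121, 75 and 123. Gm12070 had 84, 80 and 91 reads, and the less similar Gm5069 (95.6% identity) had 76, 96 and 52. The share of the Gapdh record in the reads of Gapdh and the 25 copies was 74.0% in WT (exact 95% interval 72.1% to 75.8%), 35.7% in PS19 (32.1% to 39.5%) and 25.1% in PS19 Zbp1+/- (22.1% to 28.2%). With all 154 copies added to Gapdh, the PS19 over WT ratio of the sum was 0.377 (0.349 to 0.407). What moved the reads of the Gapdh record was not tested.

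**Figure D1:**
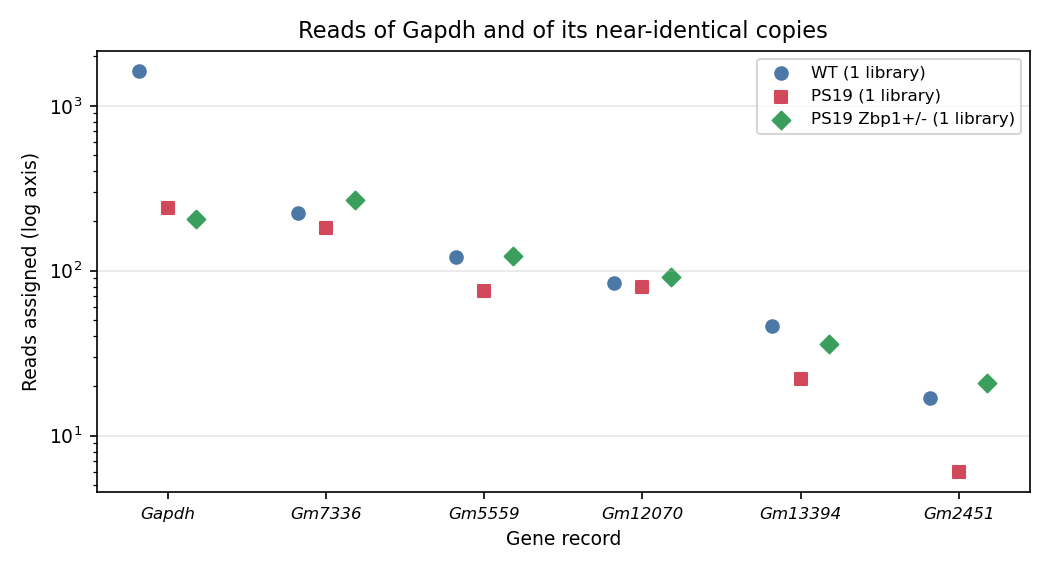
Reads assigned to Gapdh and to the 5 copies of at least 99% identity with 20 reads or more in a library, on a log axis, with 1 point per library. Gapdh has 1629 reads in WT against 239 and 205 in the PS19 libraries, while in every copy shown PS19 is the lowest of the 3 libraries.

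Other genes were ranked by how near their pattern came to that of Gapdh, and no cutoff for a close pattern was set. Among 7713 protein-coding genes whose mean FPKM reached 5, the nearest over the differences of both PS19 libraries from WT (Euclidean distance on the log2 scale, 3 libraries) was Atp6v0c, at a distance of 1.54. Sostdc1 (1.64), Sumo2 (1.76), Rps18 (1.77) and Rps27 (1.94) followed. Atp6v0c had 2629, 1253 and 227 reads, with a PS19 Zbp1+/- over PS19 ratio of 0.198 where that of Gapdh was 0.937. Rps18, a ribosomal protein gene, had 2156, 836 and 861 reads.

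The other 9 members were abundant transcripts. Their FPKM values ran from 44.0 to 652 in WT, from 40.4 to 466 in PS19 and from 64.8 to 735 in PS19 Zbp1+/-. In WT the order was Aldoa, Pkm, Aldoc, Tpi1, Pgk1, Eno1, Pfkm, Ldha and Hk1. Aldoc and Tpi1 were not distinguishable in WT by counting error, with a ratio of 1.01 per length (95% interval 0.985 to 1.04). In PS19 Aldoc stood above Pkm and was second, and the Aldoc to Tpi1 ratio was 1.64 (1.59 to 1.69). In PS19 Zbp1+/- Eno1 stood level with Tpi1, at an FPKM of 218 against 217. Biological spread between animals could reorder neighbours and was not measured.

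**Figure D2:**
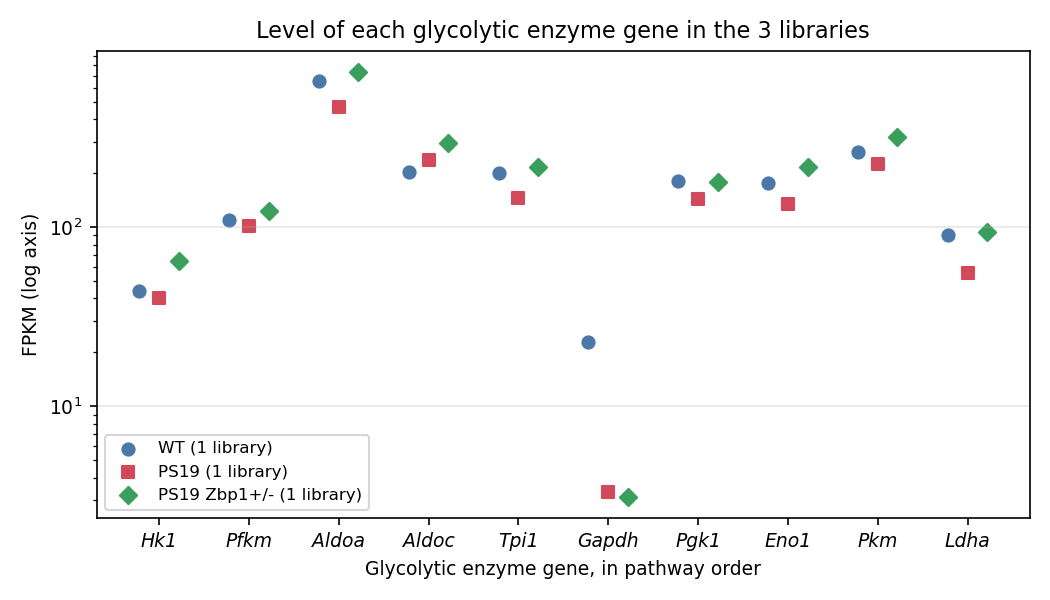
FPKM of each member, in pathway order, on a log axis, with 1 point per library. Aldoa is highest in every library, and Gapdh stands apart from the other members. PS19 is the lowest library for 8 of 10 genes, and the share of all genes with PS19 lowest was not computed.

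Between PS19 and WT, 9 of the 10 members were lower in PS19, against 53.7% of the 12703 protein-coding genes that reached an FPKM of 1 in WT or PS19. The member median was -0.36 on the log2(FPKM + 1) scale, where the median of all tested genes was -0.03. Few differences were large. Only Gapdh was at least 2-fold lower (background 0.291%) and no member was at least 2-fold higher (background 2.20%). At 1.5-fold, Gapdh and Ldha were lower (background 2.71%), but Ldha, at -0.57 log2 units, did not reach it after rescaling to an equal sum of FPKM (TPM). Summed over the 9 members without Gapdh, the PS19 library had 0.817 times the reads of WT per library size (95% interval 0.810 to 0.824).

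Hk1 and Pfkm had the PS19 over WT ratios nearest to 1 among the 10 members. Hk1, hexokinase of the mitochondrial surface and the main hexokinase of brain, had FPKM values of 44.0, 40.4 and 64.8. WT and PS19 were close, with a read ratio of 0.918 (0.886 to 0.951), and PS19 Zbp1+/- was highest. Pfkm, the muscle-type phosphofructokinase subunit, stood at 109, 101.0 and 124, with a PS19 over WT ratio of 0.926 (0.894 to 0.960). For both genes the PS19 difference from WT changed sign when the libraries were rescaled to TPM, to 0.0047 for Hk1 and 0.017 for Pfkm. As TPM, 7 of 10 members were lower in PS19, where the median of all genes was 0.08. The share of all genes lower in PS19 as TPM was not computed.

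The 2 aldolases, which split fructose bisphosphate, differed from WT in opposite directions in PS19. Aldoa had FPKM values of 652, 466 and 735, with PS19 lowest and a PS19 over WT ratio of 0.714 (0.702 to 0.726). Aldoc had 202, 239 and 295, with WT lowest. Its PS19 over WT ratio was 1.18 (1.15 to 1.21), the only one above 1 among the 10 members. As a ratio within each library, which no scaling between libraries can change, Aldoc to Aldoa was 0.310 in WT (0.304 to 0.317), 0.512 in PS19 (0.502 to 0.523) and 0.401 in PS19 Zbp1+/- (0.393 to 0.409). The record also named Aldoa, upstream on chromosome 7 (126800790 to 126809108), held 38, 46 and 49 reads and hardly bears on these values.

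The lower part of the pathway was lower in PS19. Tpi1, which interconverts the triose phosphates, had FPKM values of 199.9, 145 and 217. Its PS19 over WT ratio was 0.728 (0.706 to 0.751). Pgk1, the X-linked phosphoglycerate kinase that makes the first ATP, stood at 182, 144 and 178, with a ratio of 0.791 (0.764 to 0.820). Eno1, the ubiquitous enolase, stood at 176, 135 and 218, with a ratio of 0.762 (0.745 to 0.780). Pkm, the pyruvate kinase gene expressed in brain, stood at 262, 224 and 318, with a ratio of 0.856 (0.840 to 0.873). In all 4 genes PS19 was the lowest library.

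Ldha, the A subunit of lactate dehydrogenase, had FPKM values of 90.2, 55.2 and 94.0. After Gapdh it had the lowest PS19 over WT ratio of the members, 0.612 (0.5849 to 0.639), and WT and PS19 Zbp1+/- were close. Ldhb, the B subunit, had 243, 221 and 192, and so was lower in PS19 Zbp1+/- than in PS19. The Ldha to Ldhb ratio was 0.372 in WT (0.359 to 0.386), 0.250 in PS19 (0.239 to 0.261) and 0.489 in PS19 Zbp1+/- (0.470 to 0.509).

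**Figure D3:**
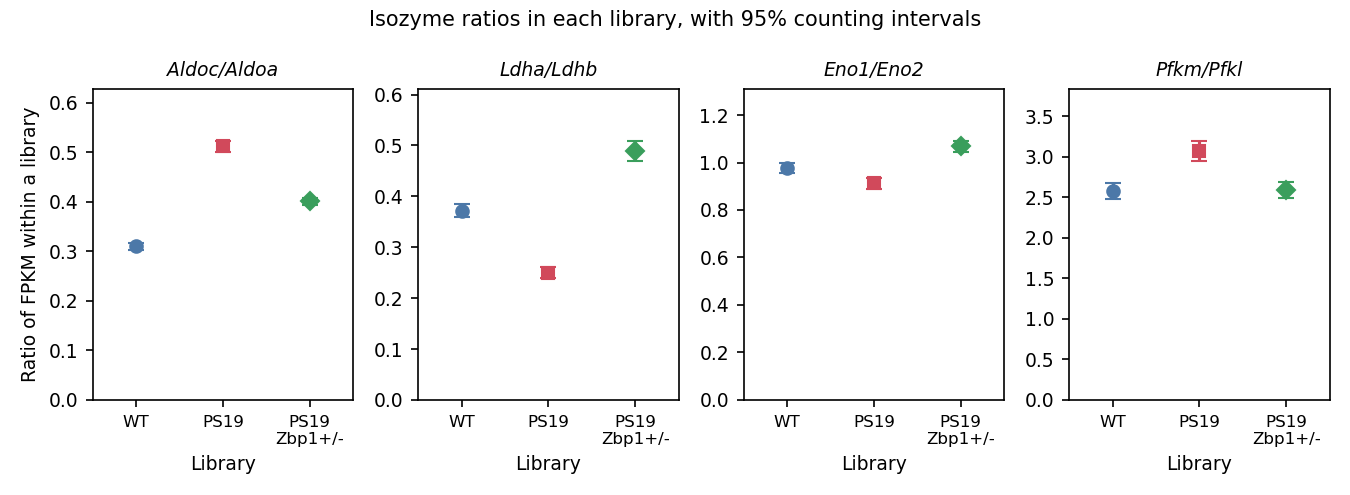
Ratio of 2 isozyme genes within each library, per gene length, from an axis at 0, with exact 95% counting intervals. Aldoc to Aldoa is highest in PS19 at 0.512, Ldha to Ldhb is lowest in PS19 at 0.250, and Eno1 to Eno2 and Pfkm to Pfkl vary less.

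The remaining isozymes described here had lower levels than the member of the same step. Pfkl, the liver-type phosphofructokinase, had FPKM values of 42.3, 32.9 and 47.8, and the platelet-type Pfkp had 18.2, 17.8 and 21.98. Eno3, the muscle enolase, had 168, 160 and 91 reads. Gapdhs, the sperm form, had 45, 59 and 49 reads, and Hkdc1 had 99, 86 and 100. Hk3 had 28, 73 and 18 reads, and Pklr had 7, 1 and 0. Pgk2 and Ldhc had 0 reads in each library, where 3 reads is the limit that a count of 0 allows.

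Other isozyme pairs varied less between libraries, apart from the hexokinases. Eno1 to Eno2, the neuronal enolase, was 0.977 in WT (0.956 to 0.999), 0.912 in PS19 (0.890 to 0.936) and 1.07 in PS19 Zbp1+/- (1.05 to 1.09). Pfkm to Pfkl was 2.58, 3.07 and 2.59, and Pfkm to Pfkp was 6.00, 5.67 and 5.63. Hk1 exceeded Hk2 82.5-fold in WT (63.3 to 109.6), 14.2-fold in PS19 (12.6 to 16.0) and 45.3-fold in PS19 Zbp1+/- (38.3 to 54.2).

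Between PS19 Zbp1+/- and PS19, 9 of the 10 members were higher in PS19 Zbp1+/-, against 53.7% of 12772 genes, and Gapdh was the exception. This comparison shares the PS19 library with the one before, so the 2 sets of directions are not independent. The member median was 0.54, against 0.04 for all tested genes. No member differed by at least 2-fold in either direction (background 7.16%). At 1.5-fold, 4 members were higher as deposited, Hk1, Aldoa, Eno1 and Ldha (background 9.37%). None of the 4 reached 1.5-fold after rescaling to TPM, at 0.39, 0.37, 0.41 and 0.48 log2 units, or after scaling by total reads, at 0.48, 0.47, 0.50 and 0.57. Ldha had the highest read ratio, 1.70 (1.63 to 1.78), followed by Eno1 at 1.62 (1.58 to 1.66), Hk1 at 1.60 (1.55 to 1.66) and Aldoa at 1.58 (1.55 to 1.60). Tpi1 stood at 1.49 and Pkm at 1.42, while Pgk1, Aldoc and Pfkm lay between 1.22 and 1.24. Over the 9 members without Gapdh the ratio was 1.46 (1.45 to 1.47). Rescaling to TPM moved the median of all genes to -0.21 and that of the members to 0.25. The same 9 members stayed above 0, but Pfkm (0.0059), Aldoc (0.018) and Pgk1 (0.025) were then close to 0. The share of all genes above 0 as TPM was not computed.

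Between PS19 Zbp1+/- and WT, 8 of 10 members were higher in PS19 Zbp1+/-, against 51.0% of 12436 genes. No member was at least 2-fold higher (background 1.07%), and Gapdh was at least 2-fold lower (background 2.28%). Hk1, at a ratio of 1.47 (1.42 to 1.52), and Aldoc, at 1.46 (1.42 to 1.49), were furthest above WT. Eno1 followed at 1.23 and Pkm at 1.21. Pgk1 had a ratio of 0.982 (0.949 to 1.02), not distinguishable from 1 by counting error at the deposited library sizes. All these ratios depend on those sizes. The highest member difference was 0.55 log2 units as deposited, 0.39 as TPM and 0.39 scaled by total reads. Tpi1 and Ldha were above WT as deposited, at 0.12 and 0.06 log2 units. They were below it after rescaling to TPM (-0.04 and -0.10) and after scaling by total reads (-0.03 and -0.10), so 6 of 10 members were higher under either. The share of all genes higher under either scaling was not computed. The median of all tested genes was 0.01 as deposited, -0.13 as TPM and -0.12 scaled by total reads.

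**Figure D4:**
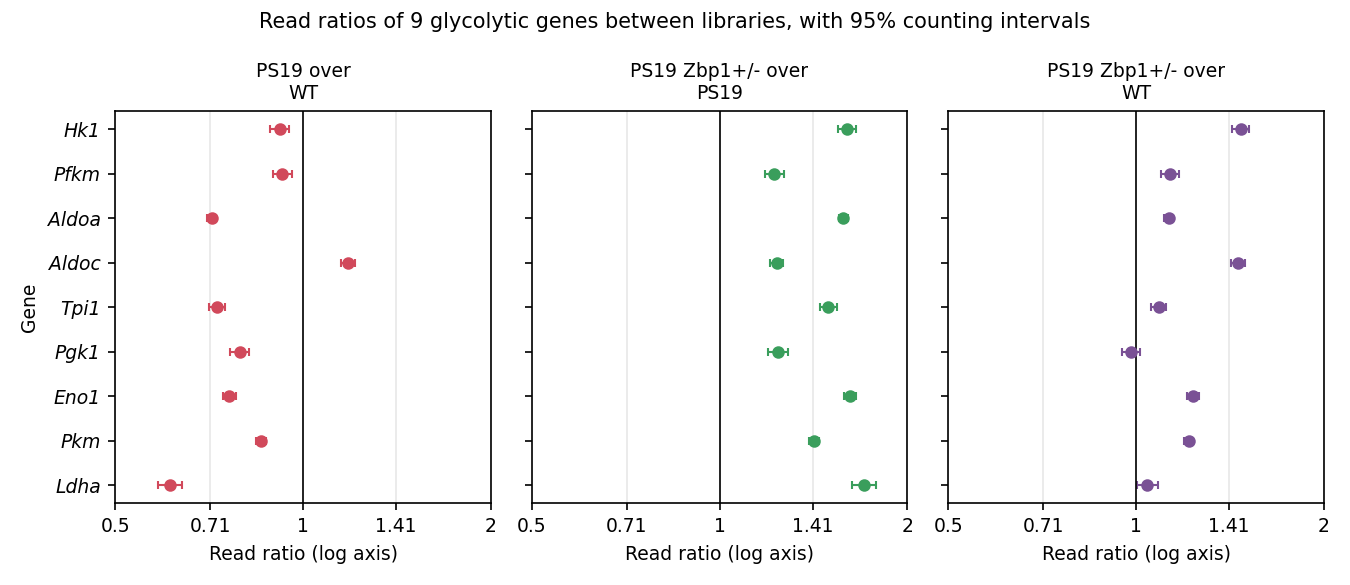
Read ratio of 9 members in each pair of libraries, on a log axis, with exact 95% counting intervals, and a line at 1 for no difference. Gapdh is left out because it lies off the axis. All but Aldoc lie below 1 for PS19 over WT, and all 9 lie above 1 for PS19 Zbp1+/- over PS19.

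Marker genes of the cell types moved across the same libraries. Neuronal markers summed to FPKM values of 916, 776 and 1118, with PS19 lowest. The list includes Eno2, itself a glycolytic enzyme, so it is not separate from the pathway. In it 6 of 8 markers were lower in PS19 than in WT, where 53.7% of all tested genes were lower. Between PS19 Zbp1+/- and PS19, 6 of the 8 were higher and 2 lower. All 8 astrocyte markers were higher in PS19 than in WT, with sums of 439, 1299 and 444, led by Gfap. All 7 oligodendrocyte markers were higher in PS19, with sums of 773, 1363 and 507. Of 7 microglial markers 6 were higher in PS19, with sums of 125, 397 and 130, and of 5 endothelial markers 4 were higher, with sums of 55.0, 56.7 and 64.2. The 5 red blood cell markers summed to 19.0, 15.8 and 3.44. The part of cell composition in the differences of the members was not tested.

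The rest of the pathway was read from lists of related genes, with a gene counted where its FPKM reached 1 in either library. Of 15 other glycolytic enzymes and isozymes, 11 were lower in PS19 than in WT, with a median of -0.06. Among all tested genes 53.7% were lower, with a median of -0.03. Pgam1, the phosphoglycerate mutase of brain, had FPKM values of 173, 140 and 231, with the same order as Tpi1 and Eno1. Eno2 had 181, 147 and 204. Hk2, an inducible hexokinase, was at least 2-fold higher in PS19, with 55, 294 and 135 reads and a PS19 over WT ratio of 5.33 (3.99 to 7.25). Hk3, of lower FPKM, passed 2-fold by reads only, with 28, 73 and 18 reads and ratios of 2.60 (1.66 to 4.18) for PS19 over WT and 0.269 (0.151 to 0.456) for PS19 Zbp1+/- over PS19.

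Between PS19 Zbp1+/- and PS19, 8 of 15 genes of that list were higher and 7 lower, with a median of 0.18. Of all tested genes 53.7% were higher, with a median of 0.04. Eno1b, a near-identical copy of Eno1 (99.4% identity), was at least 2-fold higher, with 403, 306 and 634 reads. Gm4735, another Eno1 copy, had 112, 100 and 158 reads, but Eno1 itself held 95.9% or more of the reads of these records in each library. Copies of Pkm and Ldha held little as well: Gm6560 had 175, 173 and 264 reads and Ldha-ps2 had 30, 23 and 66. Pgam2, the muscle mutase, was 2-fold above WT in PS19 Zbp1+/-, with 74, 109 and 152 reads.

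Glucose and lactate transport genes differed in both directions. Of 10 genes, 6 were lower in PS19 than in WT, and 6 were lower in PS19 Zbp1+/- than in PS19, 2 of them at least 2-fold on the log2(FPKM + 1) scale. Among all tested genes, 53.7% were lower in PS19 than in WT and 53.7% were higher in PS19 Zbp1+/- than in PS19. Between PS19 Zbp1+/- and PS19, 5.16% of tested genes were at least 2-fold lower. By reads, 2 genes of low FPKM also passed 2-fold between those libraries. Slc2a4, the insulin-responsive glucose transporter, had 57, 62 and 7 reads, with a ratio of 0.123 (0.0476 to 0.270), and Slc2a5, a fructose transporter, had 88, 68 and 163, with a ratio of 2.62 (1.96 to 3.53). Slc2a1, the glucose transporter of the blood-brain barrier and glia, had FPKM values of 37.8, 48.1 and 21.9. The neuronal glucose transporter Slc2a3 had 20.8, 16.3 and 24.9, the opposite order. Bsg, which carries lactate transporters to the membrane, had 331, 244 and 293. Slc16a8, a lactate transporter known from choroid plexus, had 266, 209 and 13 reads, beside choroid plexus markers that were near 0 in the last library.

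Of 14 regulators of flux, 10 were higher in PS19 than in WT, where 53.7% of all tested genes were lower. The list median was 0.03, and none passed 2-fold. In PS19 Zbp1+/-, 2 of the 14 were at least 2-fold lower than in both other libraries (background 5.16% against PS19 and 2.28% against WT). Txnip, which restrains glucose uptake, had 812, 998 and 132 reads, and Pdk4, an inhibitory kinase of pyruvate dehydrogenase, had 408, 440 and 104. Pdk2, another kinase of that enzyme, had FPKM values of 35.8, 37.2 and 63.3, highest in PS19 Zbp1+/-. Epas1, a hypoxia-inducible factor, had 22.9, 33.8 and 34.9, lowest in WT.

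In the lists downstream and beside glycolysis no gene passed 2-fold on the log2(FPKM + 1) scale, which understates low genes. By reads, Gbe1, the glycogen branching enzyme, had 238, 272 and 100, with a PS19 Zbp1+/- over PS19 ratio of 0.402 (0.316 to 0.507). Of all tested genes 53.7% were lower in PS19 than in WT, and 53.7% were higher in PS19 Zbp1+/- than in PS19. For pyruvate entry into mitochondria, 6 of 10 genes were lower in PS19 than in WT and 6 of 10 were lower in PS19 Zbp1+/- than in PS19. Pdha1, a subunit of pyruvate dehydrogenase, had FPKM values of 40.6, 37.6 and 41.7, and Dld had 35.4, 32.2 and 29.8. In the pentose phosphate list 4 of 8 genes were lower in PS19, and Taldo1 stood at 42.1, 42.0 and 45.1 and Tkt at 19.7, 20.02 and 27.5. Of 11 glycogen genes 9 were higher in PS19 than in WT, by at most 0.38 log2 units, with Pygb, the brain glycogen phosphorylase, at 60.5, 68.2 and 63.7 and Pgm2 at 22.6, 22.2 and 27.8. For gluconeogenesis 2 of 6 genes reached an FPKM of 1. They were G6pc3 at 25.9, 22.9 and 27.1 and Pck2 at 5.65, 4.81 and 8.69.

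Of 9 hypoxia response genes with an FPKM of 1 or more, 6 were lower in PS19 than in WT, with a median of -0.11, where 53.7% of all tested genes were lower. Of 8 such genes, 6 were lower in PS19 Zbp1+/- than in PS19, with a median of -0.25, where 53.7% of all tested genes were higher. The contrast between this list and the members was not tested. Ddit4 had FPKM values of 40.5, 37.4 and 30.7, and Bnip3 had 24.9, 21.3 and 19.0.

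**Figure D5:**
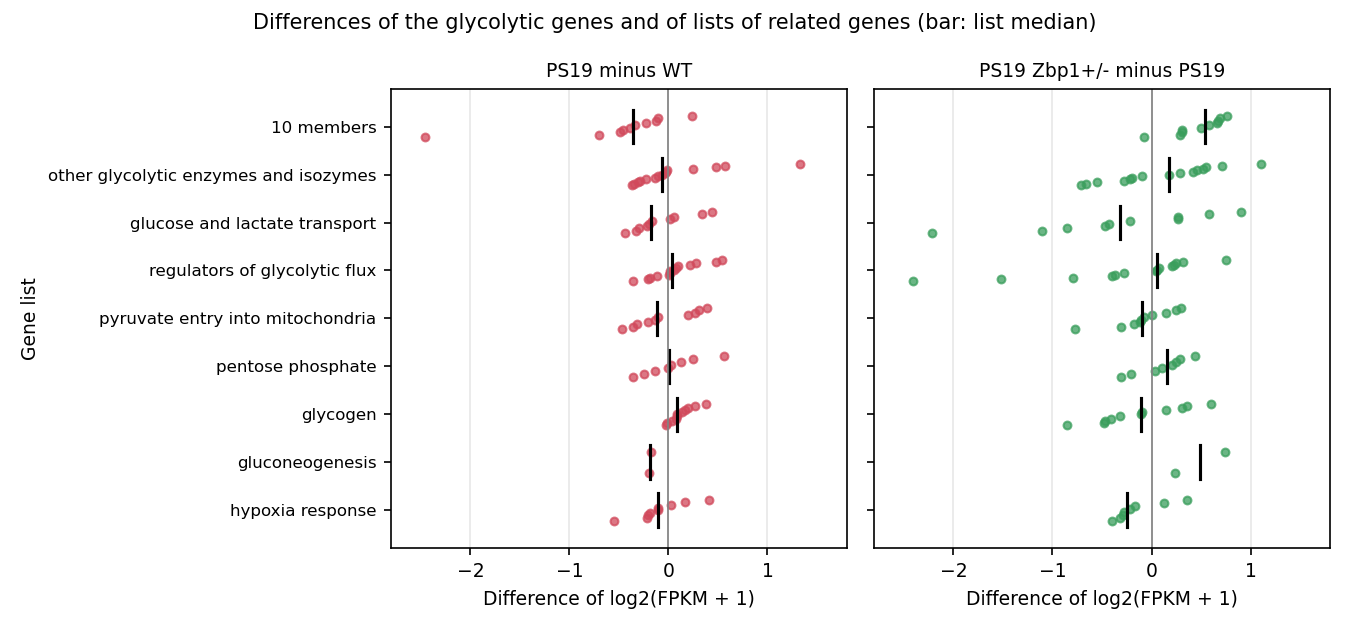
Difference of log2(FPKM + 1) for the 10 members and for the genes of each related list, with 1 point per gene and a bar at the list median. The member median is -0.36 for PS19 minus WT and 0.54 for PS19 Zbp1+/- minus PS19, while the hypoxia list has -0.11 and -0.25.

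Promoters were read for the core of the hypoxia-response element, since several glycolytic genes are known targets of hypoxia-inducible factors. The letters ACGTG and GCGTG were searched on both strands in the 250 bases before each RefSeq start (GRCm38.p6), and matches may overlap. At least 1 match was present in 16 of 21 windows of the 10 members, some of which overlap, and in 38.6% of 32851 windows of all genes. The first listed windows of Ldha, with the lowest PS19 over WT ratio after Gapdh, and of Pfkm, with the ratio nearest to 1, are shown with the matches in capitals. Neither window overlaps a GENCODE M21 exon. The Ldha window (chr7:46845554-46845803, plus strand) held 5 matches and the Pfkm window (chr15:98092339-98092588, plus strand) held 2.
Ldha: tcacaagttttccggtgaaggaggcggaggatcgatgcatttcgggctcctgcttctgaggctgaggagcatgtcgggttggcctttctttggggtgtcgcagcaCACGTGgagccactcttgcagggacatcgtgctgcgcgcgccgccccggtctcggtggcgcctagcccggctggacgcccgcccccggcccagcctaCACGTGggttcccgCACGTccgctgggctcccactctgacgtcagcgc
Pfkm: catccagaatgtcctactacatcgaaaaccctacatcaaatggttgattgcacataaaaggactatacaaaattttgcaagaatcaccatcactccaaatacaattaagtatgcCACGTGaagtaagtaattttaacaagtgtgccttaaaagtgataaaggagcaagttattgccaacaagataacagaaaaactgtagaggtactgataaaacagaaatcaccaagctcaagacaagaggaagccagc

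The other Ldha window held 1 match, and the other Pfkm windows held 2, 1 and 0. A link between the number of matches and the read ratios was not tested. The first windows of Hk1, Aldoa, Tpi1 and Pkm held no match, but other windows of Hk1, Aldoa and Pkm did. A match in the first window was present for 6 of the 10 members. In all, 9 of the 10 members had a match in at least 1 window, and Tpi1, with a single window, had none. Members differ in their number of windows, and the share of all genes with a match in any window was not computed. A match describes the letters only and is not evidence of binding.

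The genes lie apart in the genome. In the table's positions, which are those of GRCm38, Hk1 is on chromosome 10 (62268855 to 62379908), Pfkm on chromosome 15 (98092589 to 98132451), Aldoa on chromosome 7 (126795234 to 126800751) and Aldoc on chromosome 11 (78322968 to 78327781). Tpi1 is on chromosome 6 (124810586 to 124814296), as is Gapdh. Pgk1 is on chromosome X (106187100 to 106203699), Eno1 on chromosome 4 (150236721 to 150248879), Pkm on chromosome 9 (59656368 to 59679375) and Ldha on chromosome 7 (46841475 to 46855627). Tpi1 and Gapdh, which lie nearest to each other, had PS19 Zbp1+/- over WT ratios of 1.09 and 0.137.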

How the data were processed

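RNA-seq of mouse hippocampus gave 1 library each for WT, PS19 and PS19 Zbp1+/-. The authors deposited 1 table of FPKM values per gene. Per the submitters' processing notes, Trim Galore 0.6.5, STAR 2.5.3a and featureCounts 2.0.4 were used with build mm39. Of 54409 gene IDs present in GENCODE M21, 98.3% had the same position there, so positions are given as GRCm38. Handling of multi-mapping reads, strand and the step to FPKM are not given in the sources used here.

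Each FPKM times gene length was a whole multiple of 1 step (within 0.01 read) for 100% of values, which gave reads and an implied library size per library. These sizes were 17253479, 17287957 and 15826984 reads, the last below the 17109734 reads assigned to genes in that library, so comparisons with it depend on the deposited scaling. Read ratios were divided by these sizes and have 95% intervals from the exact Clopper-Pearson method. Differences are of log2(FPKM + 1), and a gene was called at 1 log2 unit (2-fold), among protein-coding genes that reached an FPKM of 1 in at least one of the libraries compared. Copies were sought with BLAST 2.17.0 in GENCODE M21 transcripts, at 90% identity over at least 50% of both the coding sequence and the record. Members and lists were chosen with earlier results of these data known. Named genes were all members, their isozymes (some are not reported here), and per list the 2 highest by mean FPKM and up to 3 past 2-fold. The 5 genes nearest to Gapdh and copies with at least 50 reads in a library were also named, while Gm13394, Gm2451, Slc2a3, Slc2a4, Slc2a5 and Gbe1 were named after their values were seen. Alternatives were pseudocounts of 0.1 and 0.5, filters, scalings, thresholds, summed copies and members left out. Scripts were tested on simulated data and ran under Python 3.11.15 with scipy 1.17.1, pandas 2.3.3, matplotlib 3.10.9 and numpy 2.4.6.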

Additional observations from a re-analysis of the deposited data

How the results depend on the processing

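No paired analysis was possible because each genotype has 1 library and no result comes from a test. With 1 library per genotype, no replicate could be left out either. The member median kept its sign in all 3 comparisons under every alternative run. For PS19 minus WT it was -0.36 as reported and -0.23 as TPM. For PS19 Zbp1+/- minus PS19 it was 0.54 as reported, 0.25 as TPM, 0.35 scaled by total reads, 0.50 with the median of all genes set to 0, 0.58 without Gapdh, and, chosen after seeing the data, 0.50 over 11 records and 0.58 without Aldoc. For PS19 Zbp1+/- minus WT it was 0.18 as reported but 0.019 as TPM and 0.021 scaled by total reads, so this median depends on the scaling. In the same 3 settings the median of all tested genes was 0.01, -0.13 and -0.12. At a 1.5-fold threshold, 2 members were lower in PS19 than in WT and 4 were higher in PS19 Zbp1+/- than in PS19, against 1 and 0 at 2-fold. These counts hold for the deposited scaling: none of the 4 reached 1.5-fold as TPM or scaled by total reads, and Ldha in PS19 minus WT, at -0.57 as TPM, did not reach it either. Without Gapdh, the members at least 2-fold lower numbered 0 in PS19 and 0 in PS19 Zbp1+/-, each against WT. Summing Gapdh with its copies turned its difference between PS19 Zbp1+/- and PS19 from -0.07 to 0.30. Member differences were also recomputed with other pseudocounts, scalings and summed copies. Of these values 57 moved by at least the margin of their counting interval, and 123 did not. Counting error is thus small beside only some of the shifts, and the variation between animals was not measured.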
